A study of Parhyale hawaiensis with 42 samples.

Results

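The miR-92 locus cluster of the amphipod crustacean *Parhyale hawaiensis* comprises 3 microRNA loci annotated as miR-92 and a neighbour that carries no name of a known family. In the files the loci are LQNS02278089.1_34106, LQNS02278089.1_34108 and LQNS02278089.1_34110 (miR-92) and LQNS02278089.1_34112 (the neighbour), after their contig in the Phaw 5.0 assembly, and they are called L06, L08, L10 and L12 here, by the last digits of the locus number. The cluster was taken as every mature sequence listed on that contig. These were 8 of the 349 mature sequences quantified, the 5p and the 3p arm of each of the 4 loci. Positions within the contig, and whether a gene lies there, are not used here. All 3p arms were 22 nt long, and the 5p arms were 23 nt long at L06 and L08, 21 nt at L10 and 22 nt at L12. Arms are written with the locus, so that L08-3p is the miR-92-3p of L08.

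Small RNAs were sequenced from pools of staged whole embryos of a wild-type laboratory strain kept at about 26 °C. The 28 libraries cover 7 time-points with 4 libraries each, namely S1–4 (stages 1 to 4), S6, S8–11, S14, S17, S21–23 and S24–30, where the number is the embryonic stage. The wider ranges that the study's text has for some of these are not used, and the sample labels are followed. S1–4 embryos are cleaving and not yet transcribing their own genome, so their RNAs were loaded by the mother, and S6 and S8–11 cover the passage to zygotic control and the start of gastrulation. Each time-point is set against the one before it, and the last against the first. Pools are whole embryos, so fewer expressing cells and less microRNA per cell cannot be told apart. Nothing in the labels ties replicates to separate cultures, broods or animals. The p-values therefore measure the spread among these libraries, which can be technical spread alone.

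A microRNA is cut from a hairpin precursor whose 2 arms each give a mature sequence. One arm is usually kept in the Argonaute protein and pairs with messenger RNAs, mainly through its seed near the 5' end, while the other arm is mostly lost. The miR-92 family is found across bilaterian animals. In vertebrates it sits in the miR-17-92 cluster and its relatives, known for driving cell proliferation, and in *Drosophila* miR-92a and miR-92b act in neural stem cells and muscle. In the family the 3p arm is the usual guide, and neighbouring microRNA loci are often transcribed together as 1 primary transcript.

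Total microRNA counts per library ran between 112244 and 1846449, with a median of 474499, the fewest at S14 (112244 to 276711) and the most at S1–4 (443926 to 1846449). At this depth the 95% Wilson interval of the share of the cluster in a library reached at most 0.292 percentage points to either side, which covers counting error only, since PCR reads without molecular identifiers are not independent molecules. In all 42 pairs of replicates the counts differed by more than sampling noise. Some libraries lay nearer to another time-point than to their own. S21–23 replicate 1 lay nearer to S24–30 replicate 1 (distance 0.525, the root mean square difference of log2 normalised counts) than to its own group (1.54), and results on these time-points are also given without both libraries, a choice made after the data were seen. S6 replicates 1 and 4 also lay nearer to S1–4, and S14 replicates 1 to 3 nearer to S17, than to their own groups.

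The cluster dominated early microRNA counts. Its 8 mature sequences held 86.3, 81.8, 85.6 and 83.9% of all microRNA counts in the S1–4 libraries, and 85.0, 83.5, 83.7 and 87.4% in the S6 libraries. The share was 60.5% ± 2.39 at S8–11, 49.7% ± 2.31 at S14 and 38.4% ± 2.46 at S17 (SD, n = 4 each). It was 10.4, 17.3, 17.8 and 20.2% in the S21–23 libraries and 7.55, 2.74, 2.705 and 3.21% in the S24–30 libraries. From S8–11 onwards the libraries of each time-point lay below those of the time-point before, with no overlap. Without the pair of libraries that lay together, the shares averaged 18.4% at S21–23 and 2.88% at S24–30. Set against every other microRNA together, the cluster gave 549 counts per 100 other counts at S1–4, 570 at S6, 154 at S8–11, 99.0 at S14, 62.6 at S17, then 19.9 at S21–23 and only 4.27 at S24–30. No test is given for this share, because the members were chosen with it known.

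A share this large touches every comparison between libraries. Where the cluster recedes, all other microRNAs take a larger part of the same total, and the way libraries are scaled to each other decides how much of that is read as change. Levels and fold changes below use scaling that centres on the bulk of microRNAs (size factors of DESeq2 for levels, the trimmed mean of M values, TMM, of edgeR for tests), and a member was called where the log2 fold change passed 1.5 either way with an adjusted p no higher than 0.001 over the 234 microRNAs tested. Scaling by total count moved the median log2 fold change of all tested microRNAs to 1.24 between S8–11 and S6 (−0.25 with TMM), to 0.45 between S14 and S8–11 (−0.06), to 0.11 between S17 and S14 (0), to 0.28 between S21–23 and S17 (0.00), to −0.03 between S6 and S1–4 (0.27) and to 3.22 between S24–30 and S1–4 (1.09). Between S24–30 and S21–23 the medians were −0.08 and 0. Over all microRNAs, 15 were called higher and 21 lower at S8–11 than at S6 with TMM, against 68 higher and 1 lower with total counts. Between S24–30 and S1–4 the split was 73 higher and 58 lower with TMM, and 137 and 33 with total counts. Ratios taken within a library, which no scaling touches, are given after the levels.

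The 3p arms of L08 and L06 made up nearly all of the cluster. The 3p arm of L08 held 55.5, 48.5, 53.6 and 50.5% of all microRNA counts in the S1–4 libraries and 60.8, 57.3, 61.2 and 60.9% in the S6 libraries. It held 36.1% ± 1.73 at S8–11, 27.2% ± 1.60 at S14 and 20.4% ± 1.42 at S17. It then held 3.86, 7.80, 8.37 and 9.31% at S21–23, and 2.80, 0.956, 0.903 and 1.099% at S24–30. It was the most abundant of the 349 mature sequences by mean share up to S17, stood at rank 3 at S21–23 and at rank 20 at S24–30. In normalised counts, L08-3p averaged 601920 ± 98198 at S1–4, 849026 ± 225771 at S6, 149920 ± 18372 at S8–11, 86029 ± 12095 at S14 and 56716 ± 7385 at S17, then 15254 ± 5861 at S21–23 and lastly 3253 ± 1673 at S24–30 (SD, n = 4 each).

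The 3p arm of L06 was the second most abundant microRNA at every time-point up to S21–23 and stood at rank 15 at S24–30. It held 29.9, 32.5, 31.3 and 32.7% of counts in the S1–4 libraries, and 23.2, 25.1, 21.6 and 25.5% in the S6 libraries. Its share then stayed near that of S6 for longer than that of L08-3p, at 22.6% ± 0.845 at S8–11, 20.9% ± 1.01 at S14 and 16.8% ± 1.097 at S17. It held 5.24, 8.45, 8.47 and 10.1% at S21–23, and 3.79, 1.47, 1.47 and 1.73% at S24–30. In both late groups replicate 1 was the library that stood away from the rest, low at S21–23 and high at S24–30. Normalised counts of L06-3p averaged 363670 ± 43068 at S1–4, 335273 ± 88606 at S6, 94036 ± 10321 at S8–11, 65970 ± 7615 at S14, 46471 ± 5595 at S17, then 16689 ± 5403 at S21–23 and, last, 4809 ± 1997 at S24–30.

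The other 3p arms were each below 1.1% of counts in every library. The 3p arm of L10, the third miR-92 copy, held 0.388, 0.367, 0.362 and 0.331% of counts at S1–4, 0.544, 0.523, 0.527 and 0.536% at S6, and 0.417% ± 0.0123 at S8–11. It was at 0.260% ± 0.0301 at S14 and 0.253% ± 0.0180 at S17, then at 1.07, 0.590, 0.513 and 0.348% in the S21–23 libraries and 0.772, 0.247, 0.263 and 0.286% in the S24–30 libraries. All S21–23 libraries thus lay above all S17 libraries, which none of the other 3p arms of the cluster showed. The part of all microRNAs with such a rise in share was not counted. In normalised counts the lowest S21–23 library had 773.4 and the highest S17 library 772.4.

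The 3p arm of L12, the neighbour with no family name, held 0.482, 0.422, 0.378 and 0.417% at S1–4 and 0.491, 0.485, 0.347 and 0.510% at S6. Its share was higher at S8–11, with 0.951, 0.886, 0.827 and 0.810%. It was 0.756% ± 0.0646 at S14, 0.579% ± 0.0590 at S17, then 0.286% ± 0.0789 at S21–23 and, last, 0.0732% ± 0.0370 at S24–30. So in share of counts L12-3p peaked at S8–11, without overlap with S6, while in normalised counts it averaged 3588 ± 142 at S8–11, against 6454 ± 2051 at S6. The part of all microRNAs with such a rise in share was not counted here either.

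**Figure D1:**
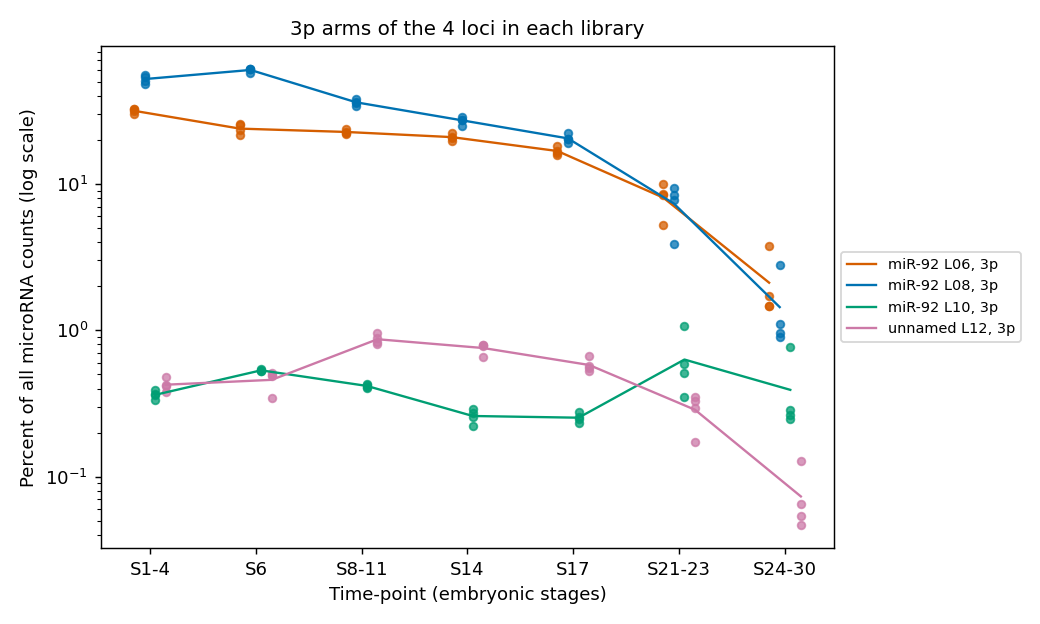
Percent of all microRNA counts (log scale) held by the 3p arm of each of the 4 loci in each of 28 libraries, by time-point, with points for single libraries and lines through the means of 4. The arms of L08 and L06 lie above 15% up to S17 and below 4% at S24–30, while L10-3p lies higher at S21–23 than at S17.

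Between S6 and S1–4, 0 of the 7 members tested were called (L10-5p, with at most 15 counts in a library, did not reach a mean of 10 normalised counts at any time-point and was not tested). Among all microRNAs 1.28% were called. At an unadjusted p under 0.05 the quasi-likelihood test of edgeR gave 3 members, beside 31.6% of all microRNAs at that level, and DESeq2 called 0 members. The L10-3p difference was 0.89 (log2, SE 0.28, adjusted p = 0.0303), that of L08-3p was 0.54 (SE 0.27, adjusted p = 0.185) and that of L06-3p was −0.07 (SE 0.22, adjusted p = 0.875). All 3 tested 5p arms had lower estimates at S6 than at S1–4, with log2 fold changes of −1.23 for L12-5p, −0.72 for L08-5p and −0.65 for L06-5p, and none passed the threshold.

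The step from S6 to S8–11 split the cluster by arm. With TMM scaling the 3 miR-92-3p arms fell and the 3 tested 5p arms rose. The log2 fold changes were −2.36 for L08-3p (SE 0.29, adjusted p = 4.64e-07), −1.97 for L10-3p (SE 0.29, adjusted p = 3.84e-06) and −1.69 for L06-3p (SE 0.23, adjusted p = 1.45e-06). Those 3 lower calls stand beside 8.97% of all microRNAs called lower, and the 3 higher calls beside 6.41% called higher. The median over the 7 members was −0.68, and over all microRNAs −0.25. The fall of the 3p arms depended on the scaling. With total counts it was −0.74 for L08-3p, −0.35 for L10-3p and −0.08 for L06-3p, none of them called. The L12-3p value, −0.68 with TMM (SE 0.23, adjusted p = 0.0204, not called), was 0.92 with total counts.

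The rise of the 5p arms held under both scalings. For L06-5p, the most abundant 5p arm of the cluster, the S8–11 libraries had 1802, 1754, 1851 and 1928 normalised counts, against 348, 276, 244 and 429 in the S6 libraries. That of L08-5p had 91.2, 114.8, 138.6 and 98.5 normalised counts at S8–11, against 11.8, 30.0, 5.92 and 22.4 at S6. The unnamed neighbour's L12-5p had 155.1, 202.7, 181.0 and 212.9 at S8–11, against 7.06, 21.6, 42.9 and 9.97 at S6. No S8–11 library overlapped with an S6 library in any of these arms. How often this held among all microRNAs was not counted. Before normalisation, the S6 libraries held only 5, 18, 4 and 9 counts of L08-5p, and 3, 13, 29 and 4 of L12-5p. The log2 fold changes were 2.65 for L06-5p (SE 0.24, adjusted p = 9.85e-09), 2.78 for L08-5p (SE 0.49, adjusted p = 4.79e-05) and 3.21 for L12-5p (SE 0.45, adjusted p = 2.59e-06). With total counts they were 4.23, 4.25 and 4.81. DESeq2 made the same number of member calls in each direction, 3 higher and 3 lower.

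Little passed the threshold in the middle of embryogenesis. Between S14 and S8–11, 0 members were called, beside 6.84% of all microRNAs. At an unadjusted p under 0.05 edgeR gave 5 members, beside 45.7% of all microRNAs at that level, and DESeq2 called 0 members. The 4 tested 3p arms had lower estimates at S14, between −1.23 for L10-3p and −0.64 for L06-3p, and between −0.68 and −0.12 for the same arms with total counts. Between S17 and S14, 0 members were called, beside 0.855% of all microRNAs, with 0 members called by DESeq2. At an unadjusted p under 0.05 there were 4 members, beside 25.2% of all microRNAs at that level. The L06-5p value was −0.97 (SE 0.22, adjusted p = 0.00724), and this arm averaged 867 ± 157 normalised counts at S17 and 1728 ± 183 at S14.

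At S21–23 the signs of the miR-92 copies differed. Only 2 of the 7 tested members were called lower than at S17, L06-5p at −2.13 (SE 0.23, adjusted p = 1.01e-07) and L08-3p at −1.79 (SE 0.28, adjusted p = 2.45e-05), beside 3.42% of all microRNAs called lower. DESeq2 called 3 members lower, beside 4.7% of all microRNAs, the added one being L12-5p at −1.67 (adjusted p = 1.37e-05). With total counts the L08-3p value was −1.48, just short of the fold threshold, and L06-5p alone was called. The values of L06-3p, L12-3p, L08-5p and L12-5p were also below 0, at −1.37, −1.33, −1.24 and −1.55. The third miR-92 copy had the opposite sign, as L10-3p was at 1.00 (SE 0.28, adjusted p = 0.00637, not called). It had 1925, 1280, 1010 and 773.4 normalised counts at S21–23, against 753.8, 663.4, 608.9 and 772.4 at S17. Without S21–23 replicate 1 the value was 0.58 (adjusted p = 0.0875), and without S21–23 replicate 4 L06-3p was called lower as well, at −1.50.

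At S24–30, 5 members were called lower than at S21–23, beside 6.41% of all microRNAs called lower, and the median over the members was −1.91, against 0 over all microRNAs. These were L08-3p (−2.31), L12-3p (−1.91), L06-3p (−1.88), L06-5p (−1.61) and L12-5p (−1.99, adjusted p = 0.000998, at the edge of the threshold). The remaining 2 were L08-5p at −1.93 (adjusted p = 0.00246) and L10-3p at −0.64 (SE 0.28, adjusted p = 0.0695). DESeq2 called 6 members lower, beside 10.3% of all microRNAs, the added one being L08-5p at −1.84 (adjusted p = 0.000271). Leaving out S24–30 replicate 2 or replicate 3 left 3 members called, with L06-5p at −1.46 or −1.47 and L12-5p at −1.89 or −1.93, and L12-5p was no longer called in 19 of the 28 cases of 1 library left out (adjusted p up to 0.00484). Without both libraries that lay together, 6 were called, L08-5p being the added one at −2.66 (−2.29 or −2.41 without either alone), and L08-3p was at −3.04.

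Over the whole of embryogenesis all 7 tested members were lower at S24–30 than at S1–4, beside 24.8% of all microRNAs called lower, and their median was −2.95, against 1.09 over all microRNAs. The log2 fold changes of the 3p arms were −7.44 for L08-3p (SE 0.36), −6.15 for L06-3p (SE 0.28), −4.78 for L12-3p (SE 0.27) and −2.15 for L10-3p (SE 0.29). The 5p arms stood at −2.95 for L06-5p, −2.84 for L08-5p and −2.49 for L12-5p. With total counts, L08-3p (−5.18), L06-3p (−3.90) and L12-3p (−2.54) were still called, the 5p arms lay between −0.71 and −0.29 with none called, and L10-3p was at 0.11 (adjusted p = 0.723).

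**Figure D2:**
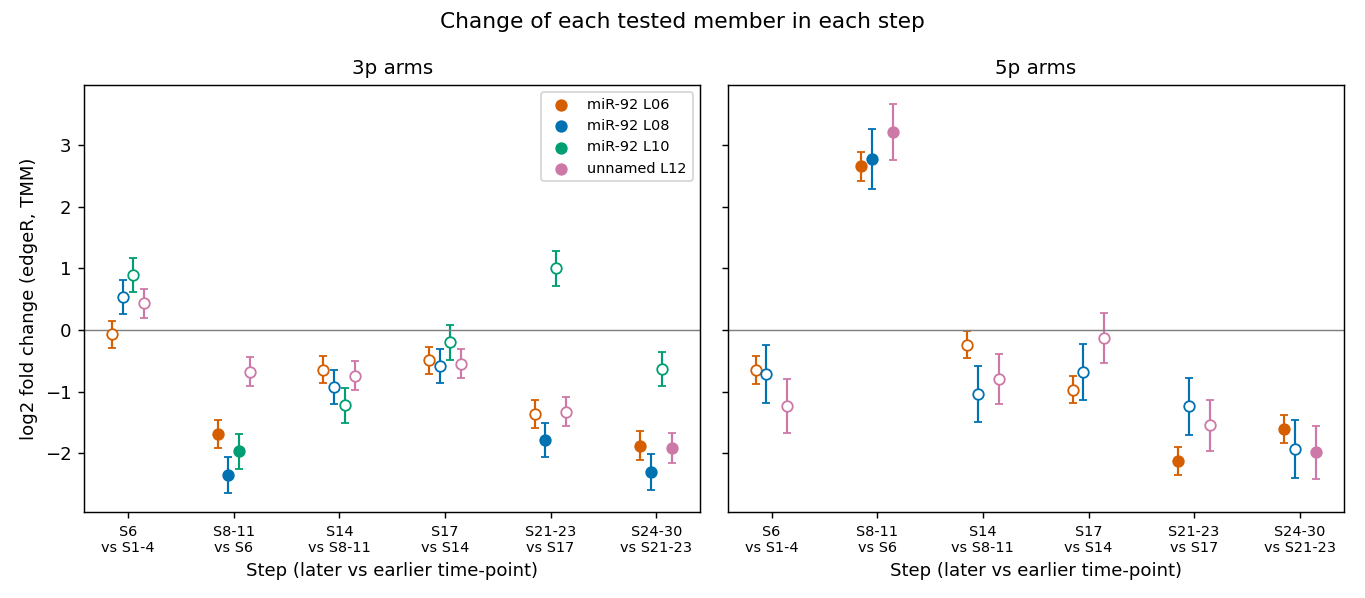
Log2 fold change (edgeR, TMM scaling, bars are SE) of each tested member in each of the 6 steps between adjacent time-points, the 3p arms on the left and the 5p arms on the right, with filled points for members called at 1.5 and an adjusted p of 0.001. At S8–11 against S6 the called 3p arms lie below 0 (−1.69 to −2.36) and the 5p arms above it (2.65 to 3.21), and with total-count scaling those 3p arms are not called.

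The balance of the 2 arms at a locus was followed within each library, so that scaling between libraries cancels. At all 4 loci the 3p arm dominated throughout, and the log2 ratio of 5p to 3p counts differed over the 7 time-points (limma F-test, adjusted p = 1.12e-12 at L06, 2.99e-10 at L08, 5.85e-08 at L12 and 0.000339 at L10). Among the 156 precursors tested, 78.2% passed. Between S8–11 and S6 all 4 loci had a higher 5p-to-3p ratio, beside 19.2% of precursors that were called higher at an adjusted p of 0.05. The median difference over all 156 precursors was 0.19, and over the 91 whose 3p arm had the larger count it was 0.58, with 25 of them called higher.

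At L06 the 5p arm made up 2.10, 1.89, 1.97 and 1.75% of the counts of both arms at S8–11, against 0.103, 0.117, 0.0769 and 0.0950% at S6. At L08 it made up 0.0706, 0.0760, 0.0948 and 0.0567% at S8–11, against 0.00133, 0.00558, 0.000660 and 0.00208% at S6. The unnamed neighbour had the 5p arm at a higher part of the total, 4.12, 5.23, 5.08 and 5.46% at S8–11 against 0.0987, 0.473, 0.837 and 0.110% at S6. The S8–11 libraries lay above the S6 libraries at each of these loci, with no overlap. How many of all precursors showed this was not counted. The log2 differences in 5p-to-3p ratio were 5.26 at L08 (SE 0.50, adjusted p = 1.67e-08), 4.33 at L06 (SE 0.30, adjusted p = 3.29e-11) and 4.22 at L12 (SE 0.50, adjusted p = 4.58e-07). At L08 and L12 the size of the difference rests on the few 5p counts at S6 given above.

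Locus L10 followed with 3.75 (SE 0.91, adjusted p = 0.00300), but its 5p arm had 70 counts over all 28 libraries and none in 8 of them, a count of 0 allowing up to 3 counts in a library, and its size rests on the 0.5 count added to both arms. The 5p arm of L10 had no count in S6 replicates 1 to 3 and none in S24–30 replicates 2 to 4.

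Before that step, the 5p part of L12 was lower at S6 than at S1–4 (log2 difference −1.99, SE 0.50, adjusted p = 0.0146), beside 2.56% of precursors called lower, and at L08 and L06 the differences of −1.34 and −0.58 did not pass. The L12 libraries overlapped, as S6 replicate 3 (0.837%) lay above S1–4 replicate 4 (0.669%). L12-5p had only 3, 13, 29 and 4 counts in the S6 libraries. After the step to S8–11, no adjacent step passed the threshold at any of the 4 loci, beside 4.49% of precursors called between S14 and S8–11, 0% between S17 and S14, 10.9% between S21–23 and S17 and 12.8% between S24–30 and S21–23, in either direction. At an unadjusted p under 0.05 there were 2, L06 at −0.74 between S21–23 and S17, beside 25.6% of precursors at that level, and L10 at −2.10 between S24–30 and S21–23, beside 22.4%. Between S14 and S8–11 and between S17 and S14 no locus reached that level, beside 21.2% and 9.62% of precursors. From S8–11 on, the mean 5p part stayed between 1.102 and 2.59% at L06, between 0.0655 and 0.123% at L08 and between 4.77 and 6.33% at L12. At L06 it was lower late in embryogenesis, as the S21–23 libraries (0.962 to 1.26%) and the S24–30 libraries (1.02 to 1.48%) all lay below the S8–11 libraries (1.75 to 2.10%). These groups were not tested against S8–11, and how many of all precursors showed this was not counted. Between S21–23 and S17 the median difference over the 91 precursors with the larger 3p arm was −0.74 as well. At L08 and L12 the S24–30 libraries overlapped with those of S8–11. At S24–30 against S1–4 the log2 difference was 4.67 at L08, 3.17 at L06 and 2.28 at L12, and −1.43 at L10 (adjusted p = 0.184), beside 27.6% of precursors called higher.

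**Figure D3:**
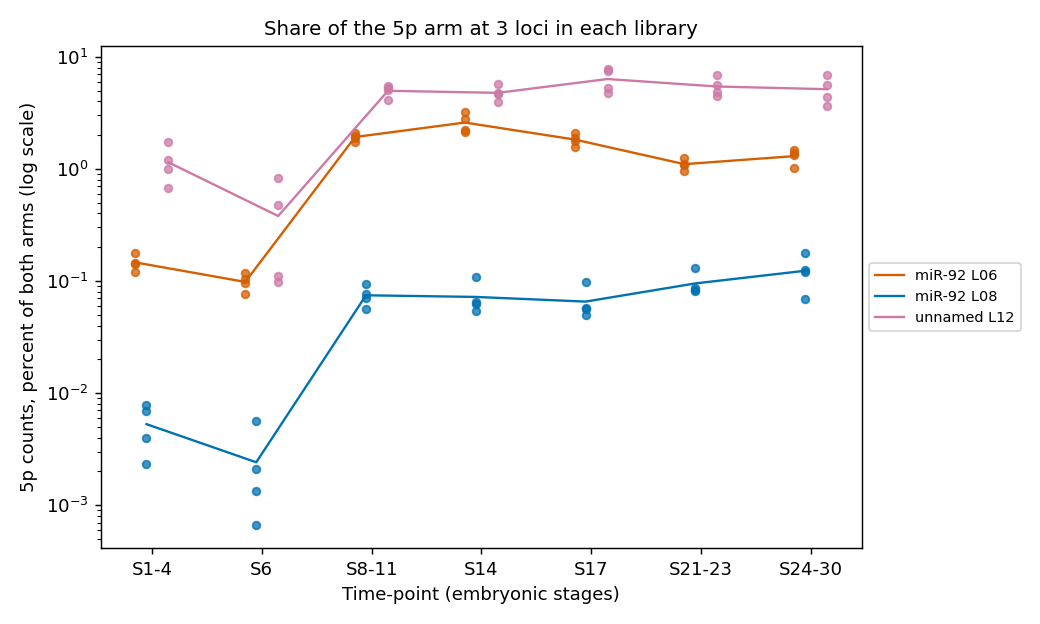
Counts of the 5p arm as a percent of the counts of both arms (log scale) at L06, L08 and L12, by time-point, with points for single libraries and lines through the means of 4; L10 is left out because of its zeros. Every S8–11 library lies above every S6 library at the 3 loci, and at L06 the S21–23 and S24–30 libraries lie below those of S8–11 (up to 1.48%, against at least 1.75%) and above those of S6. How many of all precursors showed the same was not counted.

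To ask whether the loci changed by the same factor, each 3p arm was set against L08-3p in the same library. Per 100 counts of L08-3p there were on average 61.0 counts of L06-3p at S1–4, 39.8 at S6, 62.8 at S8–11, 76.9 at S14, 82.1 at S17, then 113 at S21–23 and, last, 152 at S24–30. The order of the 2 main copies thus turned, as L06-3p had fewer counts than L08-3p in all 20 libraries up to S17, and more in all 8 libraries of S21–23 and S24–30. The log2 difference in ratio was 0.66 between S8–11 and S6 (limma, SE 0.18, adjusted p = 0.00258), 0.46 between S21–23 and S17 (adjusted p = 0.0339), 0.43 between S24–30 and S21–23 (adjusted p = 0.0383) and 1.32 between S24–30 and S1–4 (adjusted p = 2.49e-07). Between S6 and S1–4 it was −0.62 (adjusted p = 0.0299, and 0.0508 with 5 rather than 0.5 counts added), with 38.1, 43.9, 35.4 and 41.9 counts per 100 at S6, against 53.9, 67.0, 58.4 and 64.7 at S1–4. These single steps were near the threshold. For L06-3p between S24–30 and S21–23, exact permutation gave p = 0.0571 (two-sided, not adjusted). In the other comparisons just listed, exact permutation gave p = 0.0286. The call between S6 and S1–4 was lost without S1–4 replicate 2 or 4 or S6 replicate 1 or 3 (−0.60 to −0.56), that between S21–23 and S17 without S17 replicate 1, 3 or 4 or S21–23 replicate 1 or 2 (0.37 to 0.48), and that between S24–30 and S21–23 without replicate 2, 3 or 4 of either time-point (0.38 to 0.43).

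These ratios have a common background, because the fold change of L08-3p was below the median of all microRNAs in every comparison but that of S6 and S1–4 (0.54, against a median of 0.27). Relative to it, 62.2% of the 233 other microRNAs were called higher at S8–11 than at S6, 58.4% at S21–23 than at S17, 68.7% at S24–30 than at S21–23 and 91% at S24–30 than at S1–4. Only 9.01% were called lower at S6 than at S1–4, and L06-3p was one of them.

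The ratio of L10 to L08 had its larger steps late. The 3p arm of L10 had 0.697 counts per 100 of L08-3p at S1–4, 0.888 at S6, 1.16 at S8–11, 0.962 at S14 and 1.24 at S17, with no step of these called by limma (lowest adjusted p = 0.363), beside 32.2% of microRNAs called either way between S14 and S8–11 and 6.01% between S17 and S14. The early groups did not overlap, however, as the S1–4 libraries lay between 0.657 and 0.758, the S6 libraries between 0.862 and 0.913 and the S8–11 libraries between 1.11 and 1.21. Exact permutation gave p = 0.0286 in both of these steps (two-sided, not adjusted), the smallest that 4 against 4 libraries allow. The SE of limma (0.36) is shared by all time-points. The SD of the log2 ratio was 0.0889 at S1–4, 0.0354 at S6 and 0.0572 at S8–11, but 1.23 at S21–23. Every S6 library lay above every S1–4 library in 0.858% of the 233 ratios, and every S8–11 library above every S6 library in 62.7%. It then had 27.8, 7.56, 6.13 and 3.74 in the S21–23 libraries, against 1.36, 1.31, 1.15 and 1.15 in the S17 libraries, and 27.6, 25.8, 29.1 and 26.0 in the S24–30 libraries. All S21–23 libraries lay above all S17 libraries, and replicate 1 lay at the level of S24–30. Of the 233 ratios 58.4% were called higher in this step, and those without overlap were not counted. The log2 differences were 2.75 between S21–23 and S17 (SE 0.36, adjusted p = 1.05e-06; 2.17 without S21–23 replicate 1), 1.70 between S24–30 and S21–23 (adjusted p = 0.000210; 2.28 without it) and 5.28 between S24–30 and S1–4 (adjusted p = 7.40e-13). For L10-3p between S24–30 and S21–23, exact permutation gave p = 0.114 (two-sided, not adjusted), as S21–23 replicate 1 lay among the S24–30 libraries. Between S21–23 and S17, and between S24–30 and S1–4, exact permutation gave p = 0.0286. Within S21–23 the 4 libraries ran in opposite orders, the one with the largest share of the whole cluster (20.2%, replicate 4) having the lowest L10-3p ratio (3.74) and the one with the smallest share (10.4%, replicate 1) the highest (27.8). These are not separate observations, because L08-3p is a large part of that share and also the base of the ratio.

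The unnamed neighbour parted from L08 early, as most other microRNAs did. Its 3p arm had 2.80, 2.43, 2.32 and 2.12 counts per 100 of L08-3p in the S8–11 libraries, against 0.808, 0.848, 0.567 and 0.839 in the S6 libraries, with no overlap. The log2 difference was 1.67 (SE 0.20, adjusted p = 1.03e-07), beside 62.2% of the 233 ratios called higher in this step and 62.7% higher without overlap. Its means were 0.818 at S1–4, 0.765 at S6, 2.42 at S8–11, 2.79 at S14, 2.83 at S17, then 3.98 at S21–23 and, last, 5.32 at S24–30, with 0.49 between S21–23 and S17 (adjusted p = 0.0365, lost without replicate 1, 3 or 4 of S17 or 1, 2 or 3 of S21–23, at 0.43 to 0.51) and 0.41 between S24–30 and S21–23 (adjusted p = 0.0692; 0.54 and 0.0127 without the pair of libraries that lay together, and called at 0.47 or 0.49 without either). The difference between S24–30 and S1–4 passed as well (adjusted p = 3.24e-12).

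How far copies can be told apart differs between them. Every match of a read was reported upstream, and shared reads were divided by estimation. Counts of L08-3p and L10-3p were fractional in all 28 libraries and those of L06-3p in 26, the mark of divided reads (a count was taken as whole within 0.0005). Counts of L12-3p and of every 5p arm were whole in all libraries. The values of the miR-92-3p copies are therefore estimates, while the levels of the 5p arms and of L12-3p show no mark of divided reads. Whole counts alone do not show that no read was shared. Ratios to L08-3p, that of L12-3p included, and the arm ratios of the miR-92 loci have divided reads on 1 side or both.

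**Figure D4:**
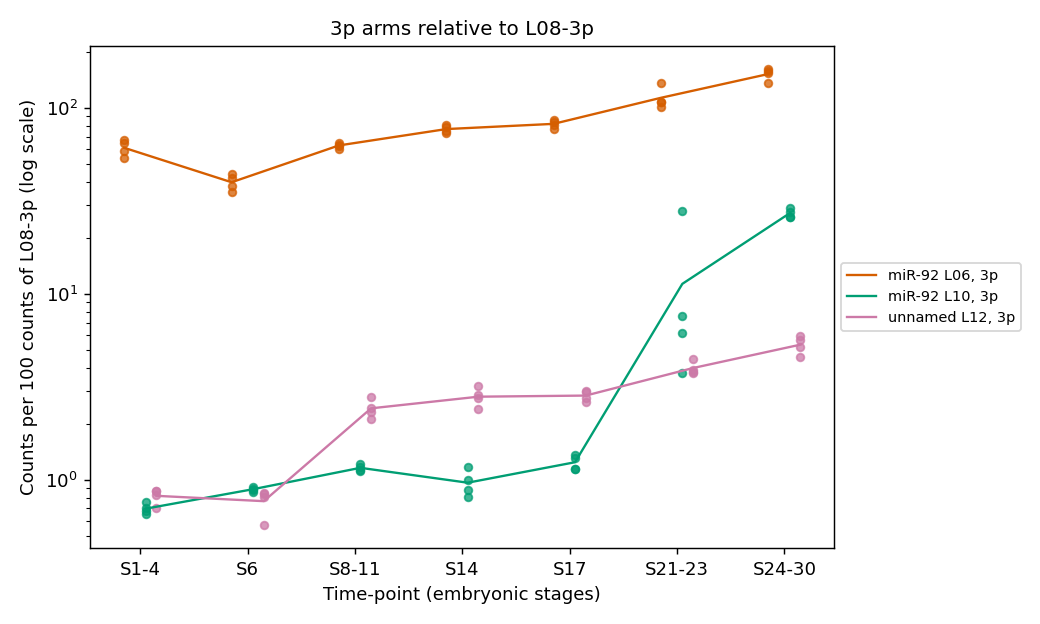
Counts of the 3p arms of loci L06, L10 and L12 per 100 counts of L08-3p (log scale) in each library, by time-point, with lines through the means of 4. Locus L12 lies higher at S8–11 than at S6 (means 2.42 and 0.765), L10 higher at S21–23 than at S17 (means 11.3 and 1.24, with 5.81 at S21–23 without replicate 1), and L06 passes 100 at S21–23.

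The profiles of the members fell into 3 shapes, given as a description over 7 time-point means of 1 set of libraries. On the scale of log2 mean normalised counts, L08-3p and L06-3p ran together (Pearson r = 1.00 after rounding), and L12-3p close to both (r = 0.98 with each). The L10-3p profile was less like them (r = 0.77 with L08-3p and 0.66 with L12-3p). The tested 5p arms resembled each other (r between 0.95 and 0.98) more than their own 3p arms, as L08-5p and L08-3p had r = 0.55, L06-5p and L06-3p 0.56, and L12-5p and L12-3p 0.53.

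Outside the cluster, the microRNAs whose profiles were most like those of the 2 main copies were LQNS02277445.1_26534_5p and LQNS02136402.1_14821_3p (r = 0.98 with each copy), then LQNS02277097.1_24325_3p for L08-3p (r = 0.97) and LQNS02278075.1_32324_5p for L06-3p (r = 0.97). None carries a known family name. The most abundant of them, LQNS02136402.1_14821_3p, averaged 14593 normalised counts at S1–4, 16063 at S6, 4855 at S8–11 and 752.2 at S24–30. Closest to L12-3p were LQNS02278075.1_32377_5p (r = 0.99), LQNS02278075.1_32315_5p from the same contig (r = 0.98) and LQNS02277097.1_24325_3p (r = 0.98). Closest to L10-3p were LQNS02277603.1_27049_3p (r = 0.97), LQNS02277097.1_24325_5p (r = 0.96) and LQNS02277275.1_26028_5p (r = 0.95), whose means did not pass 26.2 normalised counts and were under 1 from S14 on, whereas L10-3p averaged 1247 ± 497 at S21–23.

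As another abundant microRNA with several copies, miR-184 gave a comparison. It had 8 mature sequences listed, of which the 4 tested were 3p arms whose values were nearly the same. Together the 8 held 5.33% ± 0.606 of counts at S1–4, 5.86% ± 1.51 at S6, 13.7% ± 0.644 at S8–11, 13.7% ± 0.681 at S14, 10.9% ± 1.94 at S17, then 8.74% ± 1.67 at S21–23 and, last, 15.1% ± 1.43 at S24–30. In edgeR with TMM scaling, the copy at locus 1952 was at −0.42 between S8–11 and S6 (SE 0.21, adjusted p = 0.103), at 0.91 between S24–30 and S21–23 (adjusted p = 0.00160) and at −0.67 between S24–30 and S1–4 (adjusted p = 0.00564), all inside the fold threshold. Between S8–11 and S6 and between S24–30 and S1–4 these signs were opposite to those of the share of counts. Set against L08-3p in the same libraries, the miR-184 copies were higher by 1.99 on the log2 scale at S8–11 than at S6 (limma, adjusted p = 4.95e-05), by 3.25 at S24–30 than at S21–23 (adjusted p = 2.84e-07) and by 6.85 at S24–30 than at S1–4 (adjusted p = 7.13e-15 for locus 1952).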

How the data were processed

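Small RNAs of 28 libraries of whole embryos, 4 for each of 7 time-points, were used, and the 14 mRNA libraries of the same study were not used here. Libraries were grouped by their labels. The authors trimmed adaptors (cutadapt 1.18, as the submitters' processing notes give it), removed tRNA and rRNA reads, mapped the rest to mature microRNAs predicted on the Phaw 5.0 assembly (Bowtie 1.1.1, up to 1 mismatch, all matches reported) and estimated abundance with Salmon 0.14.1. The deposited values are expected counts, not normalised, and TPM, which served only as an alternative for shares. Reads of similar copies are divided by estimation, which makes single copies uncertain.

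Expected counts were rounded to whole numbers. microRNAs with a mean of at least 10 counts normalised by DESeq2 1.42.0 size factors at 1 or more time-points (234 of 349) were tested in edgeR 4.0.16 (quasi-likelihood, TMM, 1 model of 7 groups, Benjamini-Hochberg), at the study's thresholds. Within-library ratios of arms (156 precursors) and of microRNAs to L08-3p (233) were tested in limma 3.58.1 (R 4.3.3) with 0.5 counts added to both sides, at an adjusted p of 0.05. Fits were also tried on simulated data, but the outcome is not given here and no result rests on it. Figures were drawn in Python 3.11.15 with matplotlib 3.10.9.

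Every mature sequence of the contig is named, then the 3 tested microRNAs most like the more abundant arm of each locus, and miR-184 as a list. The members and lists were chosen with earlier results of these data known. The test of the arm ratio between S8–11 and S6 was added after the data were seen. Other scalings, DESeq2, no filter, other thresholds, added counts of 5, a replicate block and the omission of single libraries were tried.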

Additional observations from a re-analysis of the deposited data

Results flagged for a closer look

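Of 112 values of 4 libraries each, 15 had a library that stood apart from the other 3 by Dixon's criterion. It flags about 1 in 20 independent values, but these overlap, so their number cannot be set against that rate. S24–30 replicate 1 stood apart in the share of counts of the whole cluster (7.553%, against 2.705 to 3.21% in the others), L08-3p (2.799%), L06-3p (3.791%), L10-3p (0.7717%) and L10-5p (0.0002111%, the others at 0), and in the 5p part of L10 (0.02734%, the others at 0). The L10-5p share and the 5p part of L10 rest on the same 1 count, and where the others are at 0 any count is flagged. In S21–23 replicate 1, L10-3p had 27.79 counts per 100 of L08-3p, against 3.74 to 7.56 in the others. These 7 values are in the 2 libraries of different time-points that lay together, at a distance of 0.525.

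The other 8 were in libraries of S6, S14, S17 and S21–23. S6 replicate 2 had the lowest share of L08-3p (57.26%). S6 replicate 3 had the lowest share of L12-3p (0.3465%) and the lowest L12-3p ratio (0.5668 per 100 of L08-3p). S14 replicate 2 had the lowest share of L12-3p (0.6594%). In S6 replicate 4, L10-5p was the only one above 0 (0.0002817% of counts, and 0.05256% of both arms, both from the same 2 counts). The 5p part of L08 was highest in S17 replicate 2 (0.09877%) and in S21–23 replicate 2 (0.1299%).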

How the results depend on the processing

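The arm results over the 7 time-points and between S8–11 and S6 held under every alternative run. All 4 loci changed over time and were higher at S8–11 than at S6. This was so with 5 counts added, with a block and with any 1 library left out. At L10 this says little, because its 5p arm had no count in S6 replicates 1 to 3 and the added counts largely set its ratio. Other arm steps were not rerun. The counts of called members moved with the settings. At an adjusted p of 0.05 with no minimum fold change, 1 member was called between S6 and S1–4, 4 between S14 and S8–11, 1 between S17 and S14 and 7 between S21–23 and S17. Scaling by total counts left 3 called between S8–11 and S6, 1 between S21–23 and S17 and 3 between S24–30 and S1–4. It turned the sign of L12-3p between S8–11 and S6 (0.92), L06-5p between S14 and S8–11 (0.32), L12-5p between S17 and S14 (0.023) and L10-3p between S24–30 and S1–4 (0.11). Between S24–30 and S21–23, TMM factors computed without the cluster and the absence of a filter each left 3. With 1 library left out, the number called was 3 to 6 in that comparison, 2 to 3 between S21–23 and S17, and unchanged in the other comparisons. The number of the 3p arms' ratio comparisons to L08-3p past the threshold was 8 to 12. Values near 0 crossed it: L06-3p between S6 and S1–4 (−0.19 to 0.020), L12-5p between S17 and S14 (−0.23 to 0.0025), L06-5p between S14 and S8–11 (−0.29 to 0.048, and 0.048 without both libraries that lay together), and the L12-3p ratio between S6 and S1–4 (−0.18 to 0.029) and between S17 and S14 (−0.044 to 0.088). The cause was not tested. Over all microRNAs, DESeq2 called 8 rather than 3 between S6 and S1–4, 24 rather than 16 between S14 and S8–11, 8 rather than 2 between S17 and S14 and 40 rather than 22 between S24–30 and S21–23, and total counts 69 rather than 36 between S8–11 and S6. At an adjusted p of 0.05 with no minimum fold change there were 33, 113, 82, 25, 102 and 93 calls in the 6 adjacent steps in order, rather than 3, 36, 16, 2, 19 and 22, and 200 rather than 131 between S24–30 and S1–4. Total counts also gave 11 higher and 5 lower between S14 and S8–11 (6 and 10 with TMM) and 16 and 5 between S21–23 and S17 (11 and 8). Between S24–30 and S21–23 there were 7 higher and 15 lower, against 10 and 8 with TMM factors computed without the cluster and 10 and 6 with no filter, and with 1 library left out there were 10 calls (without S24–30 replicate 2) to 46 (without S21–23 replicate 1), and 49 without both libraries that lay together. Between S6 and S1–4 there were 0 calls with a replicate block or without S6 replicate 2 or 3. The labels do not say whether libraries with the same replicate number belong together. The deviations of 84 same-numbered pairs correlated at −0.60 to 0.30 (median 0.03), and 21 were over 0.1. Pairs with unlike numbers were not compared, so these values cannot settle it. With a replicate block 6 members were called between S8–11 and S6, 2 between S21–23 and S17, 4 between S24–30 and S21–23 (L12-5p at an adjusted p of 0.00127) and 7 between S24–30 and S1–4, and the L06-3p ratio no longer passed between S6 and S1–4 (0.0534) and between S24–30 and S21–23 (0.0566). Exact permutation of 4 against 4 libraries cannot go below p = 0.0286. Depth limits L10-5p, with 70 counts over all libraries, L08-5p, with 1114, and L12-5p, with 2134.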
